A study of Homo sapiens with 4 samples.

Results

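C/D box small nucleolar RNA (snoRNA) genes were examined in nascent RNA of U2OS cells, a human osteosarcoma line. The members were the genes whose symbol begins with SNORD and whose own (sense) strand held a mean deposited count of at least 10 over the 4 libraries. They numbered 93 of 349 SNORD genes, and of 57428 genes with a sense entry in all. They were chosen by mean count alone, so their level is a description and is not tested. The assay was Bru-seq, in which newly made RNA incorporates the uridine analogue bromouridine, is captured with an antibody and is sequenced. Hypertonic cells were held in growth medium brought to 300 mM sodium with concentrated phosphate-buffered saline. Isotonic cells were held at 150 mM sodium in medium given a matched volume of ordinary saline. Cells of both groups carried a stable GFP-DCP1a fusion, a tagged and overexpressed decapping cofactor, under G418 selection, and both were labelled with 2 mM bromouridine for 30 min with no chase. Each group had 2 libraries. The labels do not give the length of exposure to hypertonic medium, the promoter that drives the fusion, or whether the line is a clone. Nor do they say that the replicates came from separate cultures, so p-values reflect only how far these particular libraries differ, possibly for technical reasons.

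C/D box snoRNAs are short nucleolar RNAs named after a C box near the 5′ end and a D box near the 3′ end. Most guide the methyltransferase fibrillarin to ribose positions of ribosomal RNA, and a few, such as the U3 RNAs of the SNORD3 genes, take part in cleavage of the ribosomal RNA precursor. In vertebrates most are not transcribed on their own. They lie inside introns of host genes, are cut out of the spliced intron after it is debranched, and are trimmed by exonucleases to the ends protected by the bound proteins. Many hosts are ribosomal protein genes or noncoding genes named SNHG for small nucleolar RNA host gene.

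Sequences of 10 members are shown because the comparison turns on them. Of these, 4 had the lowest fitted fold changes of hypertonic over isotonic, and 4 were of high level with 2 hypertonic libraries that differed. The last 2 had the highest positive fitted fold changes among members inside a host. They are GENCODE 29 transcripts on GRCh38, written 5′ to 3′ as DNA, with the C box core TGATG in capitals where it lies in the first 20 bases and the D box CTGA in capitals where it lies in the last 20.
SNORD45A: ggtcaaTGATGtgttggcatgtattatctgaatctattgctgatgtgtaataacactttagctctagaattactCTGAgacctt
SNORD45C: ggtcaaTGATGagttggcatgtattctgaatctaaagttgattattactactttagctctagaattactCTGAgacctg
SNORD16: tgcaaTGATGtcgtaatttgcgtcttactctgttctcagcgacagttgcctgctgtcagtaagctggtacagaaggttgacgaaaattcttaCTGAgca
SNORD18C: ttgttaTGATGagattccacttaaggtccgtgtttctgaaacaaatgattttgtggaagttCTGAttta
SNORD12B: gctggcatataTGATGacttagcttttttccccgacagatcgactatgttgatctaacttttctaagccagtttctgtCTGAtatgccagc
SNORD101: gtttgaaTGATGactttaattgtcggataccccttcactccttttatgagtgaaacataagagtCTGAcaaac
SNORD28: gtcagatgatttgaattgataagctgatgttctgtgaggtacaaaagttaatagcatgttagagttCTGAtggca
SNORD2: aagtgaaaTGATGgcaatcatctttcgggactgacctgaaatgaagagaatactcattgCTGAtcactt
SNORD99: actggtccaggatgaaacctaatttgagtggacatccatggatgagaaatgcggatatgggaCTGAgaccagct
SNORD50B: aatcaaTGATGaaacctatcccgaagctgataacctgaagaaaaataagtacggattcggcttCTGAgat

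On GRCh38, SNORD45A (chr1:75787889-75787972, plus strand) and SNORD45C (chr1:75787072-75787150, plus strand) lie in introns of RABGGTB. Their longest shared run was 29 bases, positions 55 to 83 of SNORD45A counted from its 5′ end, and it includes the D box. SNORD16 (chr15:66502812-66502910, minus strand) and SNORD18C (chr15:66501250-66501318, minus strand) lie in introns of RPL4. SNORD12B (chr20:49280319-49280409, plus strand) lies in ZFAS1, SNORD101 (chr6:132815307-132815379, plus strand) in RPS12, and SNORD28 (chr11:62854621-62854695, minus strand) in SNHG1. SNORD2 (chr3:186784796-186784864, plus strand) lies in EIF4A2, SNORD99 (chr1:28578749-28578822, minus strand) in SNHG12, and SNORD50B (chr6:85677589-85677658, minus strand) in SNHG5.

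The members were alike in sequence and place. TGATG occurred in the first 20 bases of 78 of 93 members (83.9%) and CTGA in the last 20 of 84 (90.3%), read on the transcript strand only; the motifs share the letters TGA but were searched in separate windows. Both occurred in 75 members (80.6%). Among 84 H/ACA snoRNA and scaRNA genes at the same minimum count the share with both was 5.95%, and among 58309 other genes, 1 transcript each, it was 0.312%. A match is a description of these letters, not a tested site. Members were 64 to 791 bases long with a median of 78 bases, and 79 were of 110 bases or fewer. Of the 93, 86 were enclosed by a same-strand host entry, and all 86 lay in an intron of that host with no overlap with its annotated exons. The median distance to the next exon downstream was 101 bases, and 42 of the 86 lay 50 to 100 bases from it. For H/ACA and scaRNA genes that median was 427 bases, with 16 of 75 inside the same bounds.

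There were 46 hosts. Ribosomal protein genes numbered 16 and held 33 members, 21 other protein-coding hosts held 36, and 9 noncoding hosts held 17. No entry enclosed the remaining 7. These were SNORD3A, SNORD3B-1 and SNORD3B-2, the SNORD63 gene on chromosome 17, SNORD5 and SNORD6, whose annotated host TAF1D had a shortened deposited entry, and SNORD10. The 93 members carry 88 symbols, since SNORD22, SNORD19, SNORD67, SNORD70 and SNORD63 each name a pair of genes. Of the 256 SNORD genes under the minimum, 150 had no count in any library. The 256 include every gene with a symbol of these families, matched by symbol and not by locus: 14 SNORD113, 30 SNORD114, 48 SNORD115 and 27 SNORD116 genes. Just above the minimum, the mean counts were 10.3 for SNORD68, 10.1 for SNORD95 and 10.1 for the chromosome 17 SNORD63. Just below it, they were 9.31 for SNORD20 and 8.97 for SNORD51, with SNORD98 at 10.0 after rounding.

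Libraries held 28367788 and 23048408 counts for hypertonic replicates 1 and 2, and 44888307 and 23410787 for isotonic replicates 1 and 2. The members' counts summed to 6675 and 2068 in the hypertonic libraries, against 9069 and 4704 in the isotonic libraries. Per 1000000 sense counts these sums were 266 and 99.1 hypertonic against 216 and 215 isotonic. The isotonic libraries were nearly equal, and the hypertonic libraries lay on either side of them. Per length, mean levels of members ran from 0.372 to 89.2 RPKM (reads per kilobase, scaled to a library of 1000000), with a median of 10.7 RPKM. The 10 members with most counts held 43.6% of the members' mean counts, and 61 of 93 members had a mean count under 50. Of the U2OS lineage genes, 2 of 8 reached a mean of 1 RPKM, with the mesenchymal gene VIM highest. TWIST1, a mesenchymal transcription factor gene, was listed at 0. None of 10 genes that mark other cell types reached 1 RPKM, and the highest was 0.119 RPKM.

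The comparison of hypertonic with isotonic cells asked how nascent snoRNA signal differed under raised sodium. Most C/D box snoRNA genes read lower in hypertonic cells. None passed the test across all genes, and for 31 members the 2 hypertonic libraries lay on opposite sides of the isotonic mean. Of 88 members with enough counts for the edgeR quasi-likelihood fit, 78 had a negative fitted log2 fold change (hypertonic over isotonic) and 10 a positive one. The median over members was −0.76 on the log2 scale, against 0.04 over all 21238 genes tested and −0.42 over the 45 hosts tested. H/ACA and scaRNA genes gave a median of −0.70, with 64 of 79 tested negative. Of the members, 0 had a Benjamini-Hochberg adjusted p under 0.05, as did 0% of all genes tested. At an unadjusted p under 0.05 in the same edgeR fit, 11 members were lower, against 2.01% of all genes, and 0 were higher, against 8.89% of all genes. DESeq2 called 2 members, SNORD45C and SNORD45A, both lower, where it called 0.118% of all genes lower. The higher hypertonic value was under the lower isotonic value for 47 of 93 members, against 39 of 84 H/ACA and scaRNA genes and 17.4% of all genes at the same minimum count. The reverse held for 1 of 93, against 22.4% of those genes. The minimum was set on raw counts, and isotonic replicate 1 was the deepest library. Members near the minimum can thus pass mainly through isotonic reads, which favours lower hypertonic values. The size of this tilt was not tested. At a mean count of at least 50, 11 of 32 members lay below without overlap, 0 lay above, and the median log2 fold change was −0.48.

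**Figure D1:**
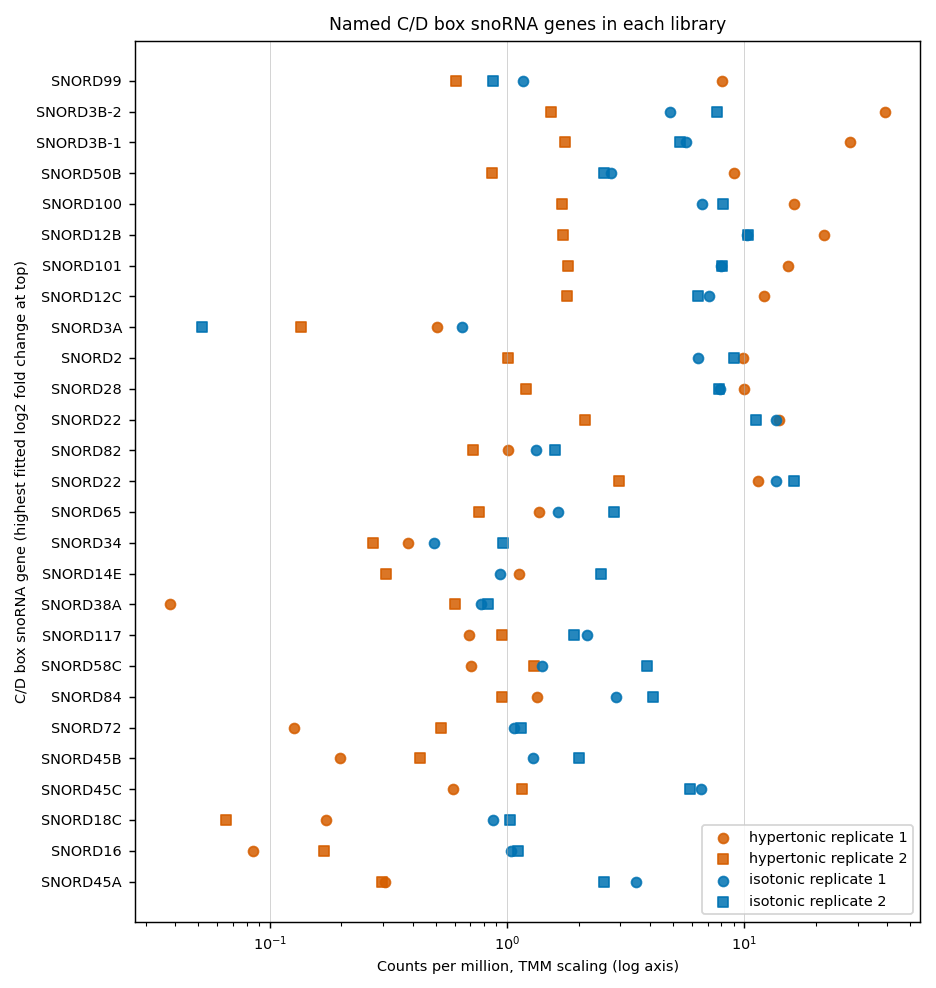
CPM, counts scaled to a library of 1000000 (log axis, TMM factors), in each library for the 27 tested members named by rule, ordered from the highest fitted log2 fold change at the top to the lowest at the bottom. At the bottom both hypertonic libraries lie left of both isotonic libraries; at the top hypertonic replicate 1 lies right of the isotonic libraries and hypertonic replicate 2 left of them.

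CPM values are counts scaled to a library of 1000000 with trimmed mean of M-values (TMM) factors, and SE is the standard error of the fitted log2 fold change. The 3 members in RABGGTB, the gene for the beta subunit of Rab geranylgeranyl transferase, were among those with the lowest fold changes. SNORD45A, a guide for 18S ribosomal RNA, had 0.306 and 0.297 CPM in the hypertonic libraries, against 3.48 and 2.55 CPM in the isotonic libraries. SNORD45C, a guide for the same RNA, had 0.590 and 1.16 CPM hypertonic, against 6.53 and 5.87 CPM isotonic. SNORD45B had 0.197 and 0.428 CPM hypertonic, against 1.29 and 2.0 CPM isotonic. For all 3 the groups did not overlap and the hypertonic libraries were low in both replicates. The log2 fold change of SNORD45A was −3.28 ± 0.80 (SE, edgeR adjusted p = 0.206; DESeq2 adjusted p = 0.00576). That of SNORD45C was −2.83 ± 0.74 (SE, edgeR adjusted p = 0.223; DESeq2 adjusted p = 0.0026), and that of SNORD45B was −2.33 ± 0.83 (SE, edgeR adjusted p = 0.342). The host moved with them, at 42.4 and 95.7 CPM in the hypertonic libraries against 321 and 311 CPM in the isotonic libraries. Its log2 fold change was −2.19 ± 0.48 (SE, edgeR adjusted p = 0.192; DESeq2 adjusted p = 0.00397).

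Members in ribosomal protein hosts had a median log2 fold change of −1.10 over 32 tested, and the hypertonic values were all under the isotonic values for 19 of 33. The 3 in RPL4 had the lowest fold changes of this class. SNORD16, a guide for 18S ribosomal RNA, had 0.0845 and 0.169 CPM hypertonic, against 1.04 and 1.11 CPM isotonic. SNORD18C, a guide for 28S ribosomal RNA, had 0.172 and 0.0655 CPM hypertonic, against 0.872 and 1.03 CPM isotonic. The log2 fold changes were −3.11 ± 0.88 for SNORD16 and −2.91 ± 0.89 for SNORD18C (SE, edgeR adjusted p = 0.249 and 0.278), and the third, SNORD18A, stood at −2.17. RPL4 itself was at 49.7 and 171 CPM hypertonic, against 167 and 232 CPM isotonic, a log2 fold change of −0.86 ± 0.56 (SE). The snoRNA genes were thus low in both hypertonic libraries, while the host lay within the isotonic range in hypertonic replicate 2.

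RPL21 and RPS13 are hosts that were low together with their snoRNA genes. RPL21 had 17.9 and 25.6 CPM hypertonic, against 81.2 and 103 CPM isotonic, a log2 fold change of −2.08 (DESeq2 adjusted p = 0.00383). SNORD102 inside it had 0.788 and 0.889 CPM hypertonic, against 2.47 and 4.36 CPM isotonic, a log2 fold change of −2.0. In RPS13, SNORD14A and SNORD14B, copies of U14, which is needed for 18S ribosomal RNA processing in yeast, had log2 fold changes of −1.79 and −1.80 beside a host at −1.51. Other members of this class did not separate by group. SNORD4A in RPL23A had 1.86 and 1.51 CPM hypertonic, against 1.77 and 1.61 CPM isotonic.

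For several of the members with most counts the 2 hypertonic libraries lay on opposite sides of the isotonic libraries. SNORD12B, a guide for 28S ribosomal RNA in the noncoding host ZFAS1, had 21.7 and 1.72 CPM hypertonic, against 10.2 and 10.4 CPM isotonic. SNORD12C in the same host had 12.1 and 1.78 CPM hypertonic, against 7.10 and 6.35 CPM isotonic. Hypertonic replicate 1 was above both isotonic libraries and hypertonic replicate 2 below both. ZFAS1 itself followed the same order, at 1573 and 315 CPM hypertonic against 679 and 844 CPM isotonic. In RPS12, SNORD101 had 15.2 and 1.81 CPM hypertonic, against 7.98 and 8.05 CPM isotonic. SNORD100, a guide for 18S ribosomal RNA there, had 16.2 and 1.70 CPM hypertonic, against 6.60 and 8.12 CPM isotonic. RPS12 stood at 265 and 46.6 CPM hypertonic, against 136 and 133 CPM isotonic, again with hypertonic replicate 1 highest and hypertonic replicate 2 lowest. The fitted log2 fold changes of these 4 members were 0.05 to 0.29, and all 4 were negative with limma-voom.

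SNHG1 holds 6 members. Their sum was 51.6 and 9.68 CPM in the hypertonic libraries, against 47.8 and 49.9 CPM in the isotonic libraries. The highest was the SNORD22 gene that begins at base 62852910, with 11.4 and 2.96 CPM hypertonic, against 13.6 and 16.1 CPM isotonic; SNORD22 is U22, which is needed for 18S ribosomal RNA processing in Xenopus. The other SNORD22 gene, beginning at base 62854161, had 14.0 and 2.12 CPM hypertonic, against 13.5 and 11.2 CPM isotonic. Hypertonic replicate 1 was thus near the isotonic level, and hypertonic replicate 2 stood well below it. SNORD28, a guide for 18S ribosomal RNA, had 9.97 and 1.20 CPM hypertonic, against 7.93 and 7.81 CPM isotonic. SNORD2 in EIF4A2, which encodes a translation initiation helicase, had 9.89 and 1.0 CPM hypertonic, against 6.36 and 8.99 CPM isotonic. Their hosts showed the same order: SNHG1 had 263 and 44.9 CPM hypertonic, against 216 and 226 CPM isotonic, and EIF4A2 had 741 and 106 CPM hypertonic, against 419 and 578 CPM isotonic.

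Among members inside a host, the 2 with the highest positive fold changes rested on hypertonic replicate 1. SNORD99, a guide for 28S ribosomal RNA in SNHG12, had 8.06 and 0.611 CPM hypertonic, against 1.17 and 0.871 CPM isotonic. SNORD50B, a guide for 28S ribosomal RNA in SNHG5, had 9.0 and 0.866 CPM hypertonic, against 2.74 and 2.56 CPM isotonic. In both, hypertonic replicate 2 was below both isotonic libraries. The log2 fold change was 2.07 ± 1.08 for SNORD99 and 0.89 ± 0.98 for SNORD50B (SE, edgeR adjusted p = 0.56 and 0.90). Without hypertonic replicate 1 they were −0.75 and −1.65.

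The U3 genes have promoters of their own, and 2 of the 3 showed the same split between the hypertonic libraries. SNORD3B-2 had 39.0 and 1.53 CPM hypertonic, against 4.87 and 7.69 CPM isotonic. SNORD3B-1 had 27.8 and 1.75 CPM hypertonic, against 5.66 and 5.37 CPM isotonic. SNORD3A had 0.507 and 0.136 CPM hypertonic, against 0.647 and 0.0516 CPM isotonic, and its isotonic libraries already differed widely. The log2 fold changes were 1.69 ± 1.12, 1.42 ± 1.02 and −0.25 ± 1.11 (SE), with edgeR adjusted p of 0.696, 0.738 and 0.994. Without hypertonic replicate 1 the first pair turned to −2.06 and −1.67. Over the length of the shorter gene of each pair, these genes were at least 95% identical to another SNORD3 gene. The identity was 99.1% for SNORD3B-1 and SNORD3B-2 with SNORD3D, and 99.8% for SNORD3A with SNORD3C. How reads were divided among the copies is thus uncertain. No member came from the SNORD13 genes.

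Over all 93 members, 66 lay under the isotonic mean in hypertonic replicate 1, as did 87 in replicate 2. The medians were −0.67 and −1.02 on the log2 scale. In 61 members both hypertonic libraries were below, in 26 replicate 1 was above and replicate 2 below, in 5 the reverse, and in 1 both were above. By host class, the 17 members in noncoding hosts had medians of 0.22 for hypertonic replicate 1 and −1.83 for replicate 2, while those in ribosomal protein hosts had −0.80 and −1.0. Across the 93 members the 2 hypertonic libraries' differences from the isotonic mean had a Pearson r of −0.04 as a description; the points share the isotonic mean and the libraries. Levels on the log scale correlated at r = 0.67 between the hypertonic libraries and at r = 0.88 between the isotonic libraries. With isotonic replicates 1 and 2, r was 0.79 and 0.75 for hypertonic replicate 1 and 0.70 and 0.72 for hypertonic replicate 2. Each hypertonic library thus correlated more with the isotonic libraries than with the other hypertonic library. The libraries also differed in the share of counts on the antisense strand of genes, 8.60% and 6.03% hypertonic against 3.17% and 3.36% isotonic. The part of library differences in these results was not tested.

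**Figure D2:**
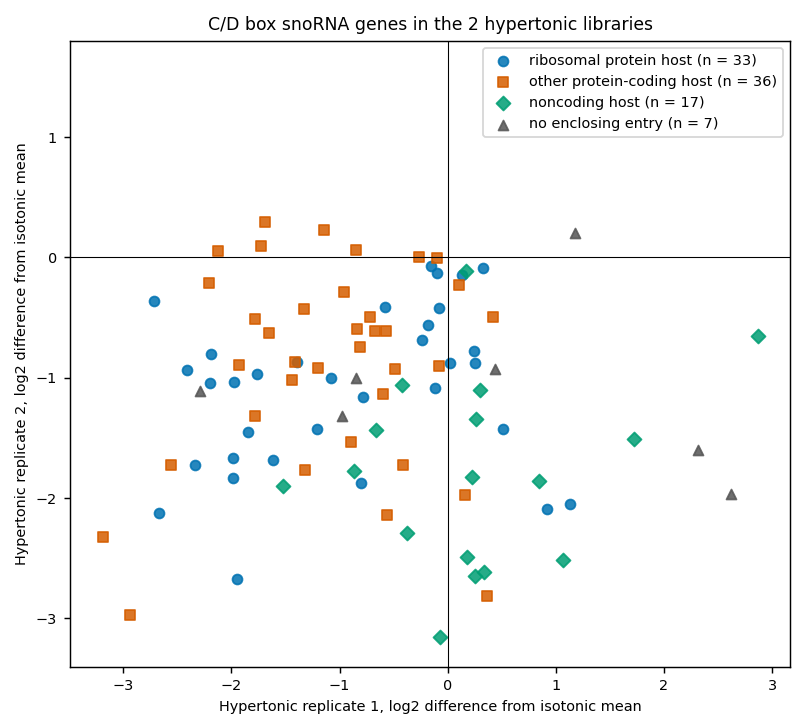
Each point is 1 of 93 members; axes give the log2 difference from the mean of the isotonic libraries in hypertonic replicate 1 (horizontal) and hypertonic replicate 2 (vertical), coloured by host class. The 61 members at lower left were below in both hypertonic libraries, and the 26 at lower right were above in replicate 1 and below in replicate 2.

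Members were next set beside their hosts. All 46 hosts had a counted length shorter than their interval, and for 31 of them it equalled the interval less all same-strand genes inside it. For those 31 the length is what is left when snoRNA bases are taken out of the host; for the other 15 which bases were left out was not settled. Reads over a snoRNA gene can come from the unspliced host intron or from the snoRNA itself, and the counts cannot tell these apart. Over 80 members with both tested, 67 had a fold change of the same sign as the host (Pearson r = 0.73 across members, a description, since members of 1 host and the scaling are shared). The member's log2 fold change was below its host's in 63 of the 80 and above it in 17, with a median difference of −0.29.

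**Figure D3:**
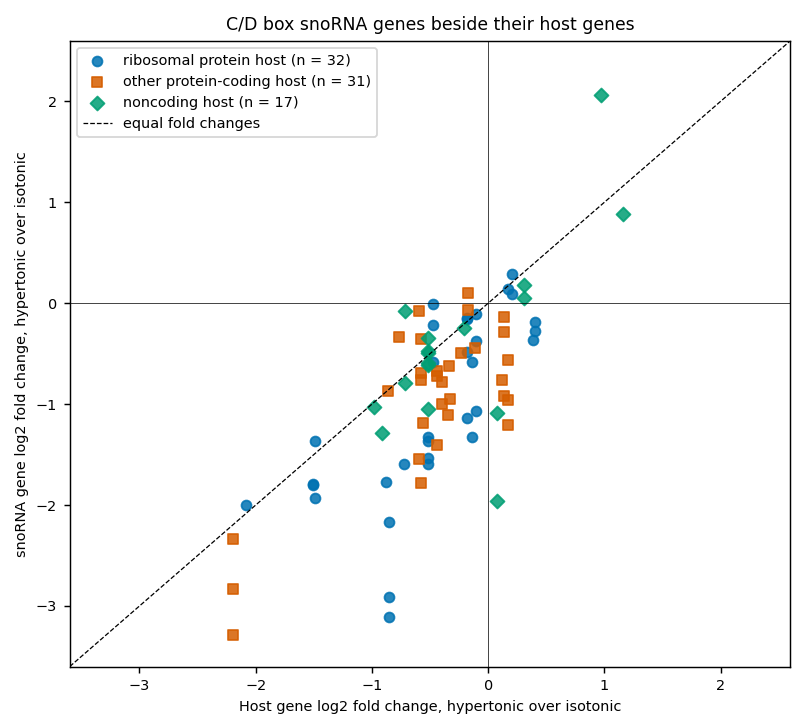
Log2 fold change of each tested member (vertical) against that of its host (horizontal), hypertonic over isotonic, for 80 members; the dashed line marks equal fold changes. Of the points, 63 lie below the line and 17 above it.

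Among hosts with 3 or more members, the ranges of member log2 fold changes were −3.28 to −2.33 in RABGGTB (host −2.19), −3.11 to −2.17 in RPL4 (host −0.86) and −1.59 to −1.33 in RPL7A (host −0.52). In NOP56, which encodes a core protein of C/D box particles, members ranged over −0.92 to −0.13 (host 0.14). Members of GNL3 ranged over −1.40 to −0.67 (host −0.44) and those of HSPA8, the constitutive HSP70 chaperone gene, over −1.21 to −0.56 (host 0.17). In these 6 hosts every member was below its host. In 4 others the host lay within the members' range: NOP58, which encodes another core protein, at −0.58 within −1.78 to −0.35, SNHG1 at −0.52 within −1.05 to −0.34, RPL13A at −0.18 within −1.13 to −0.15, and RPL23A at −0.48 within −0.58 to −0.01. In RPL3, at −0.10, members ranged over −1.07 to −0.11, the highest nearly level with the host.

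**Figure D4:**
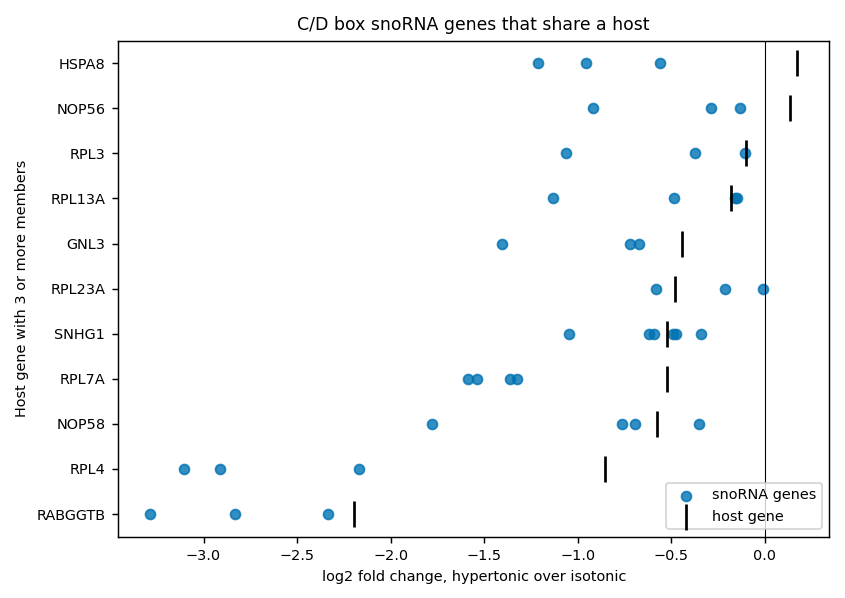
Log2 fold changes, hypertonic over isotonic, of the members (points) and of the host (vertical tick) for the 11 hosts with 3 or more members, ordered by the host's value. In RABGGTB, RPL4, RPL7A, GNL3, NOP56 and HSPA8 every point lies left of the tick, and in RPL3 the rightmost point meets it.

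Per length, the median member stood at 1.09 and 0.958 times its host's RPKM in the hypertonic libraries, against 1.36 and 1.28 times in the isotonic libraries, over 86 members. The difference between group means of these library medians was −0.37 on the log2 scale. It was −0.09 over all 1673 genes of any type nested in a same-strand host and −0.07 over 75 H/ACA and scaRNA genes. Taken gene by gene, the median difference was −0.41 over the members, −0.24 over the H/ACA and scaRNA genes and −0.15 over all nested genes. In a limma fit of the ratio of nested gene to host over the 1673 pairs, 84 members had a pair. Of these 65 were lower relative to host and 19 higher. Over all pairs 58.1% were lower, as were 44 of 75 H/ACA and scaRNA pairs. The median was −0.31, against −0.11 over all pairs and −0.18 over H/ACA and scaRNA pairs. The members' median depended on the library, at −0.07 without hypertonic replicate 2 and −0.52 without hypertonic replicate 1. No member passed an adjusted p of 0.05, nor did any pair (0%). At an unadjusted p under 0.05, 3 members were lower, against 5.02% of all pairs and 3 of 75 H/ACA and scaRNA pairs.

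**Figure D5:**
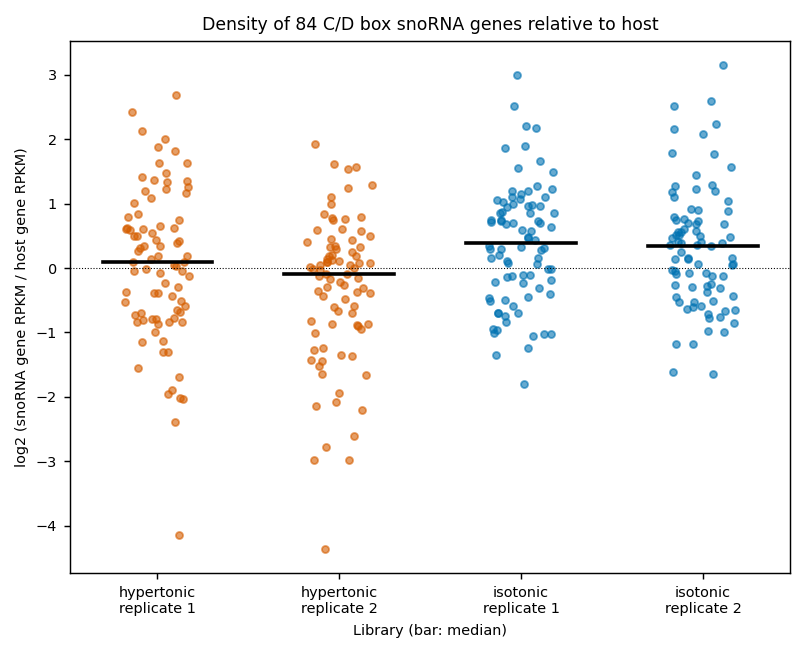
Log2 ratio of member RPKM to host RPKM in each library for the 84 members whose host had a mean count of at least 10; bars are medians. The medians are 0.10 and −0.10 in the hypertonic libraries and 0.39 and 0.35 in the isotonic libraries.

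The 3 members were SNORD49A and SNORD65, which lie in the noncoding host LRRC75A-AS1, and SNORD83A in RPL3. They were chosen after their values were seen. SNORD49A, a guide for 28S ribosomal RNA, had log2 ratios to host of 0.03 and 0.19 in the hypertonic libraries, against 2.21 and 2.08 in the isotonic libraries. SNORD83A had −0.01 and −0.02 hypertonic, against 1.28 and 0.68 isotonic. In both the groups did not overlap, and the host's own log2 fold change was 0.07 and −0.10. SNORD65, a guide for 18S ribosomal RNA, is also among the members highest over their hosts, with log2 ratios of 1.82 and 1.62 hypertonic, against 2.51 and 3.16 isotonic. It had 1.37 and 0.761 CPM hypertonic, against 1.63 and 2.82 CPM isotonic, which puts both hypertonic libraries lower.

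The other members highest over their hosts were SNORD84 and SNORD117 in DDX39B, SNORD50B and SNORD58C. DDX39B, an RNA helicase gene, was counted over only 323 of its 11522 bases, and RPL17, the host of SNORD58C, over 533 bases, so these ratios rest on a small part of the host. SNORD84 had 1.34 and 0.952 CPM hypertonic, against 2.86 and 4.11 CPM isotonic. SNORD117 had 0.689 and 0.954 CPM hypertonic, against 2.2 and 1.91 CPM isotonic. SNORD58C had 0.706 and 1.30 CPM hypertonic, against 1.40 and 3.87 CPM isotonic. All 3 were lower in both hypertonic libraries. Mean log2 ratios to host were 5.53 for SNORD84, 4.95 for SNORD117, 2.36 for SNORD50B and 2.0 for SNORD58C.

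Among the members lowest relative to their hosts were SNORD14E in HSPA8, SNORD82 in NCL, SNORD34 in RPL13A and SNORD72 in RPL37, with mean log2 ratios of −2.26, −1.72, −1.36 and −1.21. SNORD14E, another U14 gene, had 1.12 and 0.310 CPM hypertonic, against 0.934 and 2.47 CPM isotonic, so the groups overlapped. HSPA8 had 195 and 345 CPM hypertonic, against 176 and 304 CPM isotonic, and the log2 ratio of SNORD14E to it was −1.69 and −4.37 hypertonic, against −1.80 and −1.19 isotonic. Hypertonic replicate 2 stood apart in this ratio, as it did for SNORD14C and SNORD14D in the same host, at −2.98 and −2.61. Without hypertonic replicate 1, the fitted log2 differences from host were −2.64 for SNORD14E, −2.51 for SNORD14C and −2.32 for SNORD14D. The median over all pairs was then −0.11. These 3 values share 1 host and 1 hypertonic library.

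SNORD82, in the gene for nucleolin, had 1.01 and 0.715 CPM hypertonic, against 1.32 and 1.59 CPM isotonic. SNORD34, a guide for 28S ribosomal RNA, had 0.383 and 0.271 CPM hypertonic, against 0.493 and 0.964 CPM isotonic. SNORD72 had 0.126 and 0.529 CPM hypertonic, against 1.07 and 1.14 CPM isotonic. No hypertonic value of these 3 reached an isotonic one. At the minimum count, SNORD68 in RPL13 had 0.902 and 6.63 counts hypertonic, against 25.1 and 8.55 counts isotonic. SNORD95 in RACK1 had 1.88 and 6.76 counts hypertonic, against 26.1 and 5.61 counts isotonic. The chromosome 17 SNORD63 had 16.9 and 8.04 counts hypertonic, against 9.77 and 5.47 counts isotonic. It was the only member whose hypertonic CPM values both exceeded both isotonic values. Neither TGATG nor CTGA was found in the searched windows of its sequence. SNORD68, SNORD95 and this SNORD63, with SNORD94 and SNORD126, were too low for the fit.

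Genes that encode proteins of C/D box particles were not called. FBL, which encodes fibrillarin, had 12.1 and 50.9 CPM hypertonic, against 36.4 and 44.7 CPM isotonic, so the groups overlapped. The log2 fold changes of the 4 core genes were −0.36 for FBL, 0.14 for NOP56, −0.58 for NOP58 and −0.61 for SNU13, and 0 passed in edgeR or DESeq2. Of 10 assembly factor genes, 5 were negative and 5 positive, with a median of −0.02 that became 0.19 with total-count scaling. Of 6 release and trimming genes, among them DBR1, the lariat debranching enzyme, and XRN2, a nuclear exonuclease, 4 were negative and 2 positive. Their median was −0.20, and 0.02 with total-count scaling. None of these 16 passed in either tool.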

How the data were processed

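Tools named in the submitters' processing notes, without a role, are STAR 2.5.3a, Bowtie2 2.3.3, bedtools 2.16.2 and CASAVA 1.8.2. For each gene and strand the authors deposited an expected count (reads shared out in parts, not all whole numbers), as read from the values. The deposited RPKM values, also read from the values, divide that count by the counted bases and a constant for each library; the tables have no header. Of 137 member values under 20, 48.2% lay within 0.05 base of whole bases at 51 bases per read, against 8.03 to 11.7% at 49, 50, 52 and 53 bases. Members and lists were chosen with earlier results of these data known. The members named were those highest in mean count, smallest in p in each direction, highest or lowest relative to host, with promoters of their own, or nearest the minimum; 1 of those lowest relative to host is not reported here.

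Expected counts were rounded and fitted in edgeR 4.0.16 (TMM, filterByExpr, quasi-likelihood, Benjamini-Hochberg). DESeq2 1.42.0 and limma 3.58.1 were alternatives, and limma with a prior count of 2 gave ratios to the enclosing same-strand host with most counts. The fits were also run on simulated counts as a check of the code. Those counts were drawn independently with the same relative spread set for every gene. The runs thus do not measure precision in these libraries. With 2 libraries a group an exact permutation test cannot go below p = 0.333. Gene models and sequences are from GENCODE release 29. Depth is given as library totals with the results.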

Additional observations from a re-analysis of the deposited data

Results flagged for a closer look

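Antisense counts at the members entered no comparison above. Summed over the 93 members, as counts per 1000000 counts of the library, they averaged 0.766 ± 0.200 in hypertonic libraries, against 0.395 ± 0.201 in isotonic libraries (SD, n = 2 each). The single values were 0.907 and 0.624 hypertonic, against 0.538 and 0.253 isotonic, so the groups did not overlap. They rest on 25.7 and 14.4 counts hypertonic, against 24.1 and 5.92 counts isotonic. The antisense share over all genes was also higher in both hypertonic libraries, and its part in this difference was not tested.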

How the results depend on the processing

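No member was called with other scaling (size factors, total count, upper quartile), limma-voom or the replicate block. Over all genes, 0% were called with these scalings and with limma-voom, and 1.81% with the replicate block. With all 4 libraries, SNORD45A and SNORD45C were the only 2 members called. Both passed without the filter, where 0.126% of all genes were called lower, and with DESeq2, where 0.118% were. Total-count scaling left 7 members lower at an unadjusted p under 0.05 (0.523% of all genes), a median of −0.53 and 3 members above without overlap, and upper-quartile scaling a median of −0.57 and 2 above. The median of all genes was 0.26 and 0.23 under these scalings. At an unadjusted p under 0.05, 2 members were higher without the filter (8.0% of all genes) and 1 with DESeq2 (9.49%). Among the 32 members with a mean count of at least 50, 3 were lower at that p, the median was −0.48, 11 lay below without overlap and 0 above. No matching share of all genes without overlap is given for the other scalings or this higher minimum.

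Leaving out each library in turn gave 0 to 10 calls, 0 to 7 members higher and 2 to 32 lower at an unadjusted p under 0.05, a median of −1.15 to −0.62, 56 to 76 members below and 2 to 22 above without overlap, 0 to 3 calls relative to host and a difference in ratio to host of −0.47 to −0.28. A lone library is then assumed to vary like the other group, so no conclusion is drawn from these calls or from those relative to host. Groups also separate more easily when 1 of them holds 1 library. No matching share of all genes without overlap is given for these runs. The 10 calls (4 higher, 6 lower) came without hypertonic replicate 2, where 21.4% of all genes were called. The 7 came there too (17.8% of all genes), the 32 without hypertonic replicate 1 (10.8%), and the 2 without isotonic replicate 1 (0.383%) or 2 (0.103%).

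Over the 27 tested named members, 25 of 297 values changed sign. With limma-voom and the replicate block, SNORD12B gave −0.76 and −0.71, SNORD101 −0.61 and −0.58, SNORD100 −0.47 and −0.44, SNORD12C −0.54 and −0.50, and SNORD3A 0.0053 and 0.11. SNORD12C gave −0.029 without the filter. Over left-out libraries the ranges were −2.06 to 2.64 for SNORD3B-2, −1.67 to 2.33 for SNORD3B-1, −1.67 to 2.46 for SNORD3A, −2.61 to 1.07 for SNORD12B, −1.96 to 0.85 for SNORD12C, −2.18 to 0.92 for SNORD101, −2.15 to 1.14 for SNORD100, −2.58 to 0.18 for the SNORD22 gene at base 62854161, −2.72 to 0.34 for SNORD28, −2.93 to 0.37 for SNORD2, −0.75 to 2.95 for SNORD99 and −1.65 to 1.75 for SNORD50B. The cause was not tested.

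Same-numbered libraries shared little (r = 0.02 over 21238 genes). The labels state no pairing, and this 1 correlation cannot exclude it. The replicate block called 1.81% of all genes at an edgeR adjusted p under 0.05, against 0% without it, and 0 members. With the replicate block 8 members were lower at an unadjusted p under 0.05 (2.05% of all genes) and the median was −0.92. Low counts limit precision for most members.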
